A study of Mus musculus with 23 samples.

Results

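The step from activated B cell to plasmablast was followed in mouse spleen B cells carrying a guide RNA against Irf8. The comparison sets 3 libraries of Irf8-guide plasmablasts against 3 libraries of Irf8-guide activated B cells, 6 of the 23 libraries of the series. Members were taken by the genotype and cell type in the sample labels and by no measured value. Both groups came from naive spleen B cells cultured for 72 hours with LPS (20 mg/ml as the labels write it), IL-5 at 5 ng/ml and IL-2 at 20 ng/ml. KO plasmablasts carried Irf8 guide 1 and were sorted as B220-positive or B220-intermediate, CD138-positive and Thy1.1-positive. KO activated B cells carried the same guide and were sorted as B220-positive, GL7-positive, CD138-negative and Thy1.1-positive. The same cells without a guide, sorted as Thy1.1-negative, gave 2 WT plasmablast and 3 WT activated B cell libraries, which set the size of the step beside that in KO cells and share the estimate of the spread with the KO groups. Cells positive for CD11b, F4/80 or Thy1.2 were gated out in every sort. The labels do not give the strain, the age, how the guide was delivered or which nuclease was used, and a sorted KO population is a pool of cells, not 1 clone. They call the CD138-positive cells plasma cells in 1 field and plasmablasts in another.

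A B cell that is stimulated through Toll-like receptors divides and can turn into a plasmablast, a dividing antibody-secreting cell. In this change the B cell genes for antigen capture, antigen presentation and homing are shut down under Prdm1 (Blimp-1), while Irf4 and Xbp1 drive secretion and enlarge the endoplasmic reticulum (ER). Irf8 is a transcription factor of B and myeloid cells that binds DNA with ETS partners such as PU.1 (Spi1) and Spi-B (Spib) at composite elements, and it is known to promote B cell genes and to restrain the plasma cell fate.

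Values are RPKM as the authors deposited them, and differences are KO plasmablast minus KO activated B cell on the log2(RPKM + 1) scale, which understates changes of genes at low RPKM. Of 10574 genes in the table, 9986 reached 1 RPKM in at least 2 of the 11 cultured libraries and were tested with limma. Genes with an adjusted p under 0.05 (Benjamini-Hochberg, over all 9986) are said to be called. A p here measures the spread between these libraries, since the labels do not say that they came from separate animals or cultures. The m3 libraries need care. The m3 library of KO plasmablasts held an estimated 51000 reads, read from the smallest steps of its values, whereas the other 5 KO libraries held 9800000 to 26700000 and the WT libraries 4300000 to 26900000. In it 1 read is worth 3.07 RPKM at the median gene length, 1984 genes of the table are listed at 0, and the median tested gene rests on 2 reads. Its values correlated with those of the other libraries at a median r of 0.477 across genes, whereas m1 and m2 of the KO plasmablasts correlated with each other at r = 0.989. The m3 library labelled KO activated lacked Thy1, and the m3 library labelled WT activated had it, so those labels and the Thy1.1 sort disagree in this pair. No library was moved to another group. Counts of calls and many differences are therefore given on all libraries and again on m1 and m2 alone. The second fit drops the m3 library of KO plasmablasts and both m3 activated libraries. Where a called gene has only its difference on all libraries, it was called in the same direction on m1 and m2 alone, but its size there can differ.

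Of 82 marker genes of 8 other cell types, 11 passed the filter, 3 of them macrophage genes, and Lyz2, Csf1r, S100a8 and Cd3e were not among the genes tested. Summed over the 11, the level was 161 to 311 RPKM in KO plasmablasts and 140 to 162 RPKM in KO activated B cells, mostly Bst2, which plasma cells also express. Without Bst2 the sums were 18.7 to 121 RPKM in KO plasmablasts and 60.6 to 74.3 RPKM in KO activated B cells. The highest of these was the m3 plasmablast library, in which Lck (a T cell kinase that B cells can also express) stood at 53.9 RPKM from 13 reads and Flt3 at 37.9 RPKM from 12, against 1.02 and 0.67 RPKM for Lck and 5.28 and 5.34 RPKM for Flt3 in the other plasmablast libraries. The part of such RNA in the m3 values was not tested. Bulk RNA cannot tell fewer cells of a type from less RNA per cell.

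Thy1, the gene behind the sort marker of guide-carrying cells, stood at 32.8, 40.7 and 35.9 RPKM in KO plasmablasts, against 21.9, 27.8 and 0.0930 RPKM in KO activated B cells. All 3 KO plasmablast libraries and the first 2 KO activated libraries were high, and only the m3 library labelled KO activated was near 0. In WT cells Thy1 stood at 0.0570 and 0.142 RPKM in WT plasmablasts, against 0.0130, 0.0550 and 25.7 RPKM in WT activated B cells. Here only the m3 library labelled WT activated was high, so the m3 activated pair is the one in which Thy1 and label part ways.

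Irf8 itself (at chr8:120736358-120756694 on mm10) fell in the step. It had 17.5, 21.4 and 24.2 RPKM in KO plasmablasts, against 69.2, 68.1 and 92.4 RPKM in KO activated B cells. The groups did not overlap, and the difference was -1.81 ± 0.27 (SE) with limma's adjusted p of 0.0117 on all libraries and -1.77 ± 0.15 with adjusted p 2.87e-06 on m1 and m2 alone. In WT cells Irf8 had 24.6 and 17.6 RPKM in WT plasmablasts, against 108, 93.6 and 59.998 RPKM in WT activated B cells. The RPKM of Irf8 counts its RNA and does not measure how many copies of the gene were cut, so guide activity was not tested here.

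The 3 marker genes separated the populations in the direction of their labels. Sdc1 encodes CD138, on which the plasmablasts were sorted, so its difference follows from the sort. Sdc1 (chr12:8771396-8793716) had 33.3, 29.3 and 3.03 RPKM in KO plasmablasts, against 0.448, 0.510 and 0.790 RPKM in KO activated B cells. Its m3 plasmablast value is 1 estimated read, and the difference was 3.36 on all libraries and 4.45 on m1 and m2 alone. Spib (chr7:44525995-44532087), which encodes the ETS factor Spi-B of mature B cells, had 1.45, 1.54 and 0 RPKM in KO plasmablasts, against 31.5, 39.3 and 55.8 RPKM in KO activated B cells. It had the lowest difference of all tested genes on all libraries, at -4.51 ± 0.40 (SE, adjusted p 0.00211), with 0 reads in the m3 plasmablast library. On m1 and m2 alone Spib stood at -3.86, and Ccr7 (-4.23) and Fcer2a (-3.91) were lower. Prkcb (chr7:122289104-122634402), the protein kinase C beta of B cell receptor signalling, had 21.8, 18.1 and 18.1 RPKM in KO plasmablasts, against 77.2, 76.2 and 86.1 RPKM in KO activated B cells. Its 3 plasmablast libraries lay within a narrow range and all below the activated ones, with the m3 value from 6 estimated reads. The difference was -1.996 ± 0.23 (SE, adjusted p 0.00569), and -1.90 on m1 and m2 alone.

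Other defining genes of the plasmablast had smaller differences. Jchain, the joining chain of secreted IgM and IgA, had 1563, 1482 and 1271 RPKM in KO plasmablasts, against 774, 696 and 543 RPKM in KO activated B cells. All plasmablast libraries were above all activated ones, yet the difference of 1.11 ± 0.48 (SE) was not called on all libraries (adjusted p 0.229), and on m1 and m2 alone it was called at 1.05 ± 0.29 (adjusted p 0.0139). Xbp1, the factor that drives the secretory programme, had 765, 764 and 279 RPKM in KO plasmablasts, against 446, 394 and 309 RPKM in KO activated B cells and was called only on m1 and m2 alone, at 0.86 ± 0.20 (SE). Prdm1, which encodes Blimp-1, had 77.1, 79.8 and 27.3 RPKM in KO plasmablasts, against 73.9, 70.5 and 63.02 RPKM in KO activated B cells. For Prdm1 the m1 and m2 plasmablast libraries lay just above the activated ones and m3 below them, and it was called in neither fit (difference -0.31 with adjusted p 0.608, and 0.12 with adjusted p 0.480). Irf4, which plasma cells need, had 132, 143 and 40.7 RPKM in KO plasmablasts, against 97.3, 92.6 and 80.6 RPKM in KO activated B cells, with differences of 0.03 (not called) and 0.53 (called). On the B cell side Ms4a1 (CD20) and Pax5, the factor that keeps B cell identity, differed by -1.46 and -1.35 without a call on all libraries and by -0.91 and -1.94, both called, on m1 and m2 alone.

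**Figure D1:**
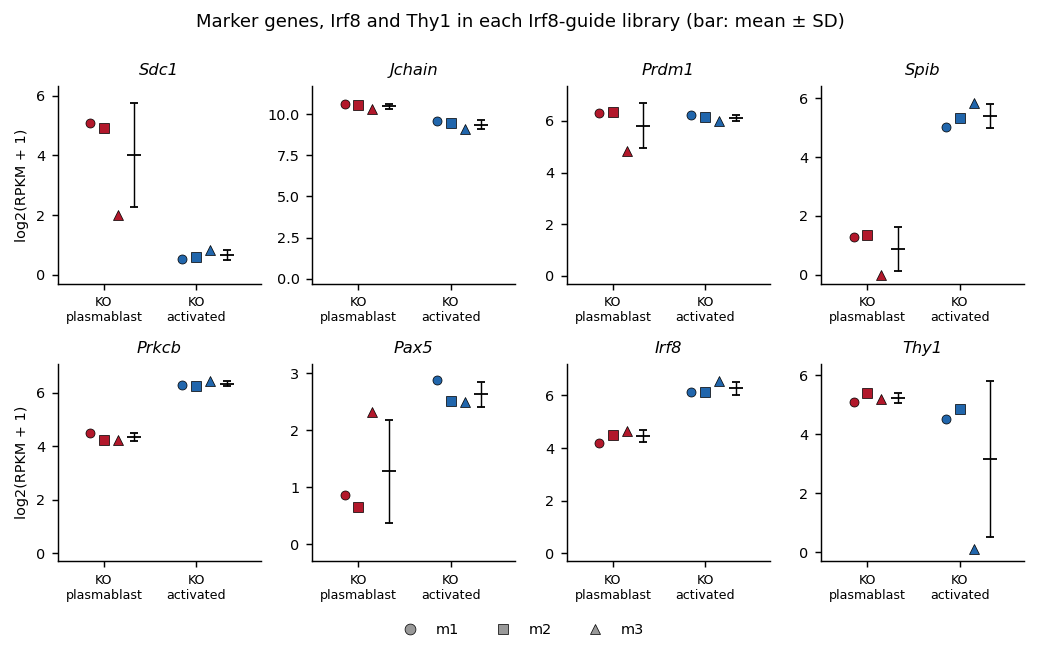
RPKM on the log2(RPKM + 1) scale (vertical axis) of 8 genes in the KO plasmablast (left, red) and KO activated B cell libraries (right, blue); circles are m1, squares m2, triangles m3, and the bar beside them is the mean ± SD of 3 libraries. Sdc1 and Jchain lie higher and Spib, Prkcb and Irf8 lower in every plasmablast library than in every activated one, and Thy1 is near 0 only in the m3 library labelled KO activated.

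Across all tested genes the step in KO cells lowered more genes than it raised. On all libraries 77 genes were called higher in KO plasmablasts, 0.771% of those tested, and 267 were called lower, 2.67%. By at least 1 on the log2 scale 58 were higher and 225 lower, and the median difference of all tested genes was -0.215. On m1 and m2 alone 1199 genes were called higher (12%) and 2127 lower (21.3%), of which 159 and 470 changed by at least 1, and the median was -0.102. All 77 and all 267 were also called in the same direction on m1 and m2 alone. The 3 plasmablast libraries lay above all 3 activated ones for 734 tested genes and below them for 2274. The 1816 tested genes listed at 0 in the m3 plasmablast library cannot lie above. On m1 and m2 alone the plasmablast libraries lay above both activated ones for 2502 tested genes and below them for 4274. Quantile normalization gave 255 higher and 310 lower, and scaling by median ratio gave 111 higher and 236 lower. One library decides the count: without m3 of the KO plasmablasts 3037 genes were called in all. Without 1 of the others limma called 200 and 165 genes (leaving out m1 or m2 of the KO plasmablasts), 54, 39 and 57 (m1, m2 or m3 of the KO activated cells), 135 and 135 (m1 or m2 of the WT plasmablasts) and 207, 112 and 274 (m1, m2 or m3 of the WT activated cells). The WT libraries enter here because all 4 groups share 1 estimate of the spread, and with the 2 KO groups alone 15 genes were called, 0 higher and 15 lower. Quantile normalization set the median difference at 0.01 and median ratio scaling at -0.104. Of the 52 genes called on all libraries and named here with a difference, 39 lost the call when at least 1 library was left out, 0 of them by leaving out m3 of the KO plasmablasts, and none turned direction. Of the 77 genes called higher, 71 rest on under 10 estimated reads in the m3 plasmablast library. So do 249 of the 267 called lower, 64 of which are listed at 0 there. Of all 9986 tested genes only 581 held 10 or more estimated reads in that library, so few reads are not particular to the called genes.

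B cell surface molecules were lower in KO plasmablasts. Of 25 tested, 0 were called higher and 7 lower on all libraries, with a median of -1.357, and 0 and 19 were called on m1 and m2 alone, with a median of -0.857. Cd22, a sialic-acid-binding receptor that damps B cell receptor signals, had 4.20, 2.55 and 10.96 RPKM in KO plasmablasts, against 55.8, 55.8 and 49.03 RPKM in KO activated B cells. Its plasmablast libraries lay far below the activated ones, with a difference of -3.17 ± 0.48 (SE, adjusted p 0.0126) and of -3.72 on m1 and m2 alone. Fcer2a (CD23, the low-affinity IgE receptor) had 4.61, 1.91 and 9.49 RPKM in KO plasmablasts, against 59.8, 59.3 and 26.5 RPKM in KO activated B cells, and its difference was -3.07, or -3.91 on m1 and m2 alone. In Cd22 and Fcer2a the m3 plasmablast library was the highest of its group and still below every activated library. Cd72, Cd83 and Cd37 were called lower in both fits as well, with differences of -2.26, -2.27 and -2.10 on all libraries. Cd40, the receptor for T cell help, had 2.98, 4.62 and 10.6 RPKM in KO plasmablasts, against 18.2, 18.6 and 18.98 RPKM in KO activated B cells, and was called only on m1 and m2 alone, at -2.04. Cd79a and Cd79b, the signalling chains of the B cell receptor, differed by -0.71 and -0.99 without a call, and Cd79b alone of the pair was called on m1 and m2 alone (-0.69).

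Homing and cytokine receptors changed in both directions on m1 and m2 alone. Of 18 trafficking receptors 3 were called higher and 10 lower there, against 0 and 3 on all libraries, with medians of -0.708 and -0.774. Over all tested genes 12% were called higher and 21.3% lower on m1 and m2 alone. Ccr7, the chemokine receptor that guides cells to the T zone, had 2.90, 2.02 and 9.86 RPKM in KO plasmablasts, against 55.5, 73.05 and 47.6 RPKM in KO activated B cells. It was among the lowest genes of the comparison, at -3.54 ± 0.45 (SE, adjusted p 0.00713) and -4.23 on m1 and m2 alone. Cxcr5, the receptor for the follicle, had 11.05, 12.1 and 3.25 RPKM in KO plasmablasts, against 36.1, 36.5 and 27.6 RPKM in KO activated B cells, a difference of -1.97. Itga4, the integrin chain used for entry into bone marrow and gut, had 20.3, 16.7 and 3.75 RPKM in KO plasmablasts, against 7.07, 5.45 and 3.45 RPKM in KO activated B cells, and was called higher only on m1 and m2 alone, at 1.43. Of 21 cytokine receptors 0 were called higher and 3 lower on all libraries, namely Il10ra at -2.26, Il21r at -1.69 and Il4ra at -0.89. Tnfrsf17, the BCMA receptor on which plasma cell survival depends, had 19.1, 25.2 and 0 RPKM in KO plasmablasts, against 1.56, 1.79 and 0.125 RPKM in KO activated B cells. With 0 reads in the m3 plasmablast library it was not called on all libraries (2.01, adjusted p 0.284), and it was called on m1 and m2 alone at 3.10 ± 0.19 (SE). Tnfrsf17, Cd28, Itga4 and Cd40 were singled out after their values were seen.

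MHC class II presentation genes were lower in KO plasmablasts, among them Ciita. Of 16 tested, 0 were called higher and 8 lower on all libraries, with a median of -1.275, and 1 and 11 on m1 and m2 alone, with a median of -1.078. Ciita, the co-activator on which MHC class II transcription depends, had 1.26, 1.005 and 4.60 RPKM in KO plasmablasts, against 11.9, 12.04 and 10.6 RPKM in KO activated B cells, a difference of -2.09 ± 0.40 (SE, adjusted p 0.0278) and of -2.61 on m1 and m2 alone. H2-DMb2, a chain of the peptide-loading protein H2-DM, had 15.6, 13.9 and 13.5 RPKM in KO plasmablasts, against 105, 116 and 97.1 RPKM in KO activated B cells. All 3 plasmablast values lay close together for H2-DMb2, but its m3 value is 2 estimated reads. The difference was -2.80 ± 0.19 (SE, adjusted p 8.25e-04), and -2.82 on m1 and m2 alone. Its close copy H2-DMb1 differed by -2.01, and reads of 2 such similar genes may have been split or lost in the authors' counting. The classical chains H2-Aa, H2-Ab1 and H2-Eb1 differed by -1.74, -1.06 and -1.52, all called. Cd74, the invariant chain that guards the peptide groove, had 910.1, 954 and 735 RPKM in KO plasmablasts, against 951, 1076 and 1227 RPKM in KO activated B cells. It was called in neither fit (-0.33 and -0.12). Lgmn, the lysosomal protease legumain, went the other way, with 118, 115 and 103 RPKM in KO plasmablasts, against 83.7, 83.95 and 91.1 RPKM in KO activated B cells, and was called higher on m1 and m2 alone at 0.47.

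Among 28 B cell transcription factors, 0 were called higher and 8 lower on all libraries (median -0.886), and 1 and 19 on m1 and m2 alone (median -0.584). Apart from Spib, Irf8 and Ciita the 8 were Id3, Klf2, Lmo2, Bach2 and Ebf1. Klf2, which controls lymphocyte homing and quiescence, had 1.73, 2.75 and 10.6 RPKM in KO plasmablasts, against 35.4, 43.8 and 55.7 RPKM in KO activated B cells, a difference of -3.20. Id3, an inhibitor of E proteins, had 3.65, 3.17 and 0 RPKM in KO plasmablasts, against 29.2, 29.99 and 32.7 RPKM in KO activated B cells, a difference of -3.56, or -2.80 on m1 and m2 alone. Bach2, which holds back Prdm1 in B cells, had 1.20, 0.941 and 2.03 RPKM in KO plasmablasts, against 7.23, 5.86 and 5.63 RPKM in KO activated B cells, a difference of -1.62 ± 0.28 (SE, adjusted p 0.0195). Ebf1, which specifies the B lineage, had 4.85, 3.87 and 6.65 RPKM in KO plasmablasts, against 15.98, 12.3 and 11.7 RPKM in KO activated B cells. Zbtb32, a repressor known from B cell memory responses, is in none of the lists and was among the 12 lowest genes, with 9.14, 9.37 and 6.56 RPKM in KO plasmablasts, against 58.7, 84.2 and 126 RPKM in KO activated B cells. Of 14 ETS family members Spib alone was called on all libraries, and 0 were called higher and 6 lower on m1 and m2 alone. Of 8 interferon regulatory factors Irf8 alone was called on all libraries. On m1 and m2 alone Irf4 and Irf7 were called higher (0.53 and 0.44) and Irf5 and Irf8 lower (-0.59 and -1.77).

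B cell receptor signalling genes were lower in part. Of 28 tested, 0 were called higher and 7 lower on all libraries (median -0.857), and 0 and 17 on m1 and m2 alone (median -0.405). The 7 were Prkcb, Ptpn6, Bank1, Sh3bp5, Blk, Pik3ap1 and Vav2, with differences between -1.996 and -1.04. Blk, a Src family kinase of B cells, had 17.7, 18.1 and 13.2 RPKM in KO plasmablasts, against 52.5, 47.4 and 52.7 RPKM in KO activated B cells. Bank1, a B cell scaffold protein, had 10.6, 9.35 and 3.98 RPKM in KO plasmablasts, against 42.4, 28.6 and 22.4 RPKM in KO activated B cells. Ptpn6, the phosphatase SHP-1 that acts downstream of Cd22, had 33.1, 33.5 and 11.7 RPKM in KO plasmablasts, against 78.5, 89.2 and 110.1 RPKM in KO activated B cells. None of these 3 genes overlapped between the groups, but they were picked from called genes. Over all 9986 tested genes the plasmablast libraries lay wholly above for 734 and wholly below for 2274.

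The BCL2 family split by member. Of 13 tested, 0 were called higher and 5 lower on all libraries, with a median of -0.89. Bcl2, the survival factor of resting B cells, had 2.98, 3.36 and 3.89 RPKM in KO plasmablasts, against 11.3, 10.4 and 11.5 RPKM in KO activated B cells, a difference of -1.45 ± 0.28 (SE, adjusted p 0.0279). Bid, a pro-apoptotic member, had 13.4, 12.8 and 10.7 RPKM in KO plasmablasts, against 30.2, 33.5 and 36.9 RPKM in KO activated B cells, a difference of -1.38. Bcl2a1a, Bcl2a1b and Bcl2a1d differed by -2.93, -3.73 and -4.10 on all libraries, with 0 reads of each in the m3 plasmablast library. On m1 and m2 alone they differed by -2.53, -2.66 and -2.79. They are near-identical copies, so their counts are uncertain against each other. Bcl2a1d had 12.8, 12.97 and 0 RPKM in KO plasmablasts, against 95.5, 95.1 and 104 RPKM in KO activated B cells. On m1 and m2 alone 2 members were called higher, among them Bcl2l11 (the pro-apoptotic BIM) at 0.95, and 7 were called lower.

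Some costimulatory molecules and class-switch genes were also lower. Over all tested genes 0.771% were called higher and 2.67% lower on all libraries, and 12% and 21.3% on m1 and m2 alone. Of 17 costimulation and activation genes, 0 were called higher and 3 lower on all libraries (Cd83, Cd80 and Traf1), and 0 and 11 on m1 and m2 alone. Of 21 class switching and hypermutation genes, Batf, an AP-1 family factor needed for switching, was the 1 called on all libraries, with 37.5, 39.6 and 20.4 RPKM in KO plasmablasts, against 100.1, 117 and 141 RPKM in KO activated B cells. On m1 and m2 alone 1 gene of this list was called higher and 9 lower, with Batf at -1.47. The other 11 were not called there, and the list median was -0.284 beside -0.102 for all tested genes.

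**Figure D2:**
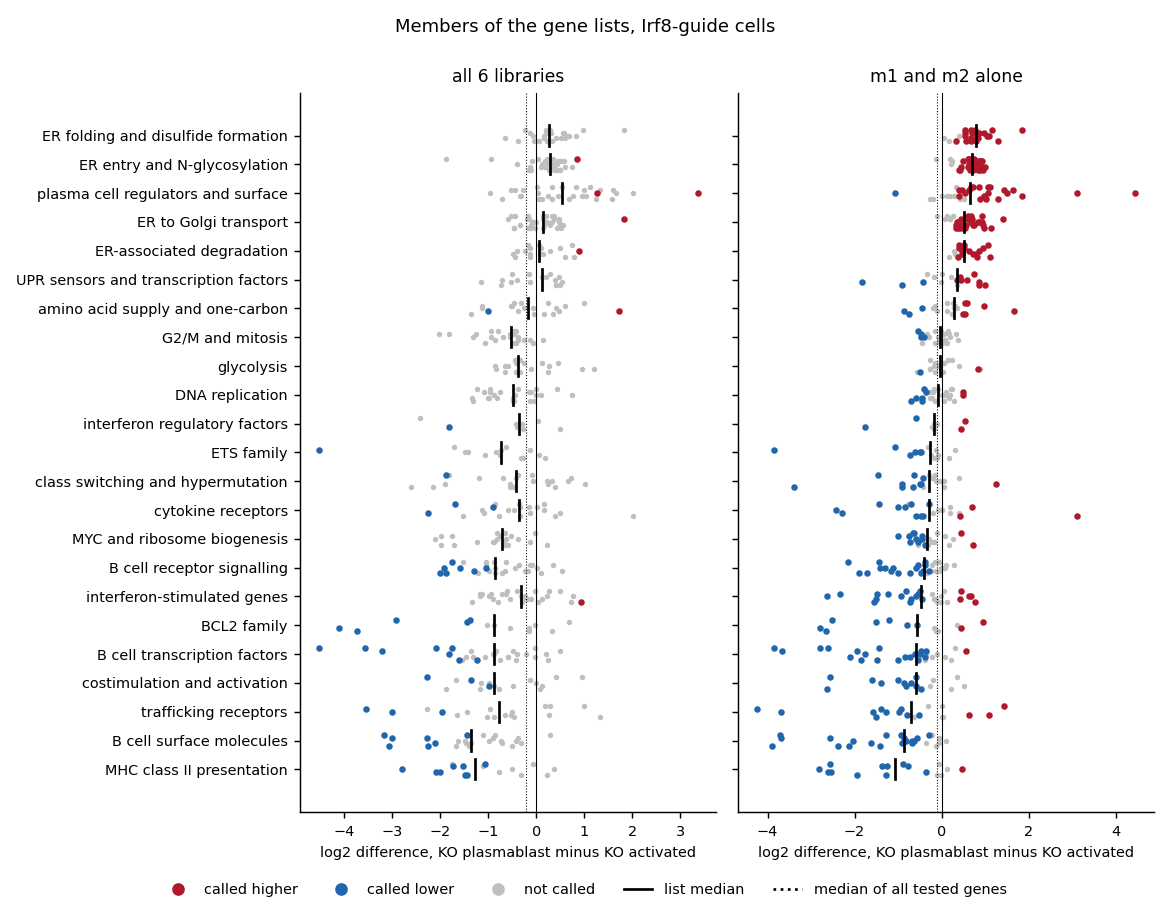
Log2 differences, KO plasmablast minus KO activated B cell, of each tested member of 23 gene lists (rows), on all 6 libraries (left) and on m1 and m2 alone (right); red points are called higher, blue lower and grey not called, black bars are list medians and the dotted line is the median of all tested genes. The ER and plasma cell lists lie to the right and the MHC class II and B cell surface lists to the left in both panels. In the 4 ER and Golgi lists 3 genes are called higher on all libraries and 96 on m1 and m2 alone.

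On the rising side the plasma cell list had 2 of 32 members called higher and 0 lower on all libraries (median 0.53), and 21 and 1 on m1 and m2 alone (median 0.653). The 2 were Sdc1 and Ctla4, an inhibitory receptor better known from T cells. Ctla4 had 30.4, 27.7 and 26.996 RPKM in KO plasmablasts, against 14.9, 12.1 and 7.75 RPKM in KO activated B cells, a difference of 1.26 ± 0.28 (SE, adjusted p 0.0413). Cd28, a receptor that supports long-lived plasma cells, had 7.18, 5.96 and 0 RPKM in KO plasmablasts, against 1.07, 1.12 and 0.510 RPKM in KO activated B cells, and was called on m1 and m2 alone at 1.85. Ly6c2 had 42.95, 41.4 and 22.4 RPKM in KO plasmablasts, against 18.7, 10.8 and 4.86 RPKM in KO activated B cells, and its reads may be shared with its close copy Ly6c1. Slpi, a secreted protease inhibitor outside the lists, was the most abundant of the 12 highest genes, with 413, 297 and 413 RPKM in KO plasmablasts, against 101, 64.8 and 154 RPKM in KO activated B cells and a difference of 1.87 ± 0.42 (SE, adjusted p 0.0457). Rgcc, a cell cycle regulator that responds to complement, had 176, 171 and 63.7 RPKM in KO plasmablasts, against 50.9, 48.2 and 29.2 RPKM in KO activated B cells, and was called on m1 and m2 alone at 1.79 ± 0.10 (SE).

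The other high genes of the comparison had few reads. The 12 highest called genes held 1 to 35 estimated reads each in the m3 plasmablast library, 7 of them 2 or fewer, and all 12 were called on m1 and m2 alone. Cox4i2, a subunit of cytochrome c oxidase, had 8.94, 13.9 and 33.5 RPKM in KO plasmablasts, against 2.09, 2.24 and 0.613 RPKM in KO activated B cells. Tspan15, a tetraspanin, had 13.3, 13.8 and 20.4 RPKM in KO plasmablasts, against 5.10, 3.57 and 0.639 RPKM in KO activated B cells. Farp2, a guanine nucleotide exchange factor, had 7.89, 6.91 and 17.5 RPKM in KO plasmablasts, against 2.04, 1.59 and 1.15 RPKM in KO activated B cells, and the G protein-coupled receptor gene Gpr160 had 9.90, 12.3 and 5.42 RPKM in KO plasmablasts, against 2.11, 2.29 and 0.877 RPKM in KO activated B cells. In all 4 the plasmablast libraries m1 and m2 lay above every activated library too. That order follows from the choice, since the 12 were taken from called genes whose libraries do not overlap. Of the 12 lowest, 7 are listed at 0 in the m3 plasmablast library, and all 12 were called on m1 and m2 alone.

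The genes of the secretory pathway rose on m1 and m2 alone. Over 4 lists that hold ER entry and N-glycosylation, ER folding, ER-associated degradation and ER to Golgi transport, 96 of 114 tested genes were called higher and 0 lower on m1 and m2 alone, with a median of 0.66. On all libraries 3 were called higher and 0 lower, with a median of 0.20, and 76 of the 114 had a positive difference. The 3 were Kdelr3, Dpagt1 and Erlec1. Kdelr3, a receptor that returns chaperones to the ER, had 11.3, 14.4 and 13.8 RPKM in KO plasmablasts, against 4.96, 3.52 and 1.37 RPKM in KO activated B cells, a difference of 1.82 ± 0.34 (SE, adjusted p 0.0254). Dpagt1, which starts N-glycan assembly, had 16.9, 18.8 and 23.1 RPKM in KO plasmablasts, against 10.4, 11.6 and 9.27 RPKM in KO activated B cells. Erlec1, a lectin of ER-associated degradation, had 11.8, 11.3 and 9.71 RPKM in KO plasmablasts, against 6.54, 5.46 and 4.43 RPKM in KO activated B cells. These 3 are genes of low level whose m3 plasmablast values lay near those of m1 and m2 but rest on few reads. The m3 values are 1 estimated read for Kdelr3, 7 for Dpagt1 and 2 for Erlec1. On m1 and m2 alone Kdelr3 differed by 1.41.

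In many chaperone genes the m3 plasmablast value lay near the activated libraries. Fkbp11, a prolyl isomerase of secretory cells, had 147, 165 and 59.04 RPKM in KO plasmablasts, against 42.6, 42.9 and 16.2 RPKM in KO activated B cells, a difference of 1.83 (adjusted p 0.0977) and, on m1 and m2 alone, of 1.84 ± 0.19 (SE, adjusted p 1.71e-05). Creld2, an ER stress gene with disulfide isomerase activity, had 717, 769.8 and 286 RPKM in KO plasmablasts, against 342, 356 and 312 RPKM in KO activated B cells. Its m1 and m2 plasmablast libraries were both above all 3 activated libraries and its m3 library below them. Pdia4, a disulfide isomerase, had 1311, 1361 and 639 RPKM in KO plasmablasts, against 736, 749.7 and 642 RPKM in KO activated B cells, and Hsp90b1 (GRP94), an ER chaperone, had 1000, 935 and 455 RPKM in KO plasmablasts, against 538, 569 and 481 RPKM in KO activated B cells. Hspa5 (BiP), the main ER chaperone, had 488, 500.2 and 213 RPKM in KO plasmablasts, against 331, 348 and 321 RPKM in KO activated B cells, a difference of 0.16 (adjusted p 0.804) and of 0.54 (adjusted p 0.0446) on m1 and m2 alone. Of 26 folding genes 23 were called higher on m1 and m2 alone, and so were 30 of 34 in ER entry and N-glycosylation, 15 of 18 in ER-associated degradation and 28 of 36 in ER to Golgi transport. Derl3, a channel component of ER-associated degradation, had 197, 197 and 51.2 RPKM in KO plasmablasts, against 103, 99.1 and 69.5 RPKM in KO activated B cells. Txndc5, Edem1 and Sdf2l1 differed by 1.15, 1.07 and 0.82 on m1 and m2 alone, all called.

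The promoters of these ER genes can be read for the letters of known ER stress motifs. The ER stress element, bound by ATF6 and XBP1 with NF-Y, was searched as CCAAT followed after 9 bases by CCACG, on both strands, in RefSeq promoters (GRCm38.p6, from 250 bases before to 50 after the start). Of 9986 tested genes 8084 had a promoter in the table and 15 held these letters, 0.186%. Of the 15, 10 were members of the 4 ER and Golgi lists, 11% of the 91 list members with a promoter, and 9 of these 10 were called higher on m1 and m2 alone. These were Calr, Creld2, Derl3, Dnajc3, Ero1lb, Hsp90b1, Hspa5, Pdia6 and Syvn1, and the 10th was Canx. Of the 5 tested genes outside the lists that held the element, 0 were called higher and 2 lower. The UPR element TGACGTG, an XBP1 site, was in 3.70% of the tested genes' promoters, 6.33% of those called higher and 2.63% of those called lower on m1 and m2 alone. Of 13 members of the ER and Golgi lists or of the B cell factor list that held it, 10 were called higher and 0 lower there. With or without a motif, 96 of the 114 tested members of the 4 ER and Golgi lists were called higher there. These counts therefore do not tell motif holders from other list members. A match describes letters and shows neither binding nor use. The promoters of 4 genes with the ER stress element and of Kdelr3 with the UPR element are shown because these are the ER genes described above, with the matched letters in capitals, in the direction of the gene.
Hspa5 (chr2:34771840-34772139, plus strand): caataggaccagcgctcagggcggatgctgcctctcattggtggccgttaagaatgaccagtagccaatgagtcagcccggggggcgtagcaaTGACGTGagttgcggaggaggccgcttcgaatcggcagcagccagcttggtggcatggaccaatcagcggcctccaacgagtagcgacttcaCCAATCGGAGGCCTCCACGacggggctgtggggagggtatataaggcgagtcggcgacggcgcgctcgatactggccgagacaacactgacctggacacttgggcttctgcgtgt
Hsp90b1 (chr10:86705395-86705694, minus strand): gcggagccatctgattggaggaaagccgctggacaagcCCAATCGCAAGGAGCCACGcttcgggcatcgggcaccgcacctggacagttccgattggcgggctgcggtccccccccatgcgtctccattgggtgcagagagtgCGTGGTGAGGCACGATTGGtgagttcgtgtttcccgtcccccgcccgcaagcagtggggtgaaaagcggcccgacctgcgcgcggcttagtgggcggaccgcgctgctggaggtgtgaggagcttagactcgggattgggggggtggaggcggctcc
Creld2 (chr15:88819396-88819695, plus strand): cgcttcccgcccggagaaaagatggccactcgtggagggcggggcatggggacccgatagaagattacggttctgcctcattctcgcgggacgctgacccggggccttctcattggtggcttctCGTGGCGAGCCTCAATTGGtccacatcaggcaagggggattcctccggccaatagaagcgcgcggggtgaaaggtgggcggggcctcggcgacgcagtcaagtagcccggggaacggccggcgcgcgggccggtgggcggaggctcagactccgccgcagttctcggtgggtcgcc
Derl3 (chr10:75893148-75893447, plus strand): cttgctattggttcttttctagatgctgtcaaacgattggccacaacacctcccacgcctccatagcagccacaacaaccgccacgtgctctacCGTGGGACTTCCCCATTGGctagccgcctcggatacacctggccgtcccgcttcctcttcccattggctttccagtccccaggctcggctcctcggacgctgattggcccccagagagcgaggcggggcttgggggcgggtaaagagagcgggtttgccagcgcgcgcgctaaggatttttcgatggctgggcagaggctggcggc
Kdelr3 (chr15:79516158-79516457, plus strand): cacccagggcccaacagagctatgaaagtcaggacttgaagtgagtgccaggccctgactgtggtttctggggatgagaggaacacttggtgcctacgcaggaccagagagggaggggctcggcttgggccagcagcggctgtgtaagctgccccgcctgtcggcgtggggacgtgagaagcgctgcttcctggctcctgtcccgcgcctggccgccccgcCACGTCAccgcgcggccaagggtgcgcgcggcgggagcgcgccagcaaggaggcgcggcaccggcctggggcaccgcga
Hspa5 held both motifs and Hsp90b1 held the ER stress element at 2 places, once on each strand. In Creld2, Derl3 and Kdelr3 the letters lie on the opposite strand.

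A second search was for the ETS-IRF composite element, the kind of site at which Irf8 and Irf4 bind with PU.1 or Spi-B, written as GGAA followed after 2 bases by GAAA on either strand. It was in 2.89% of the tested genes' promoters, 2.49% of those called higher and 3.22% of those called lower on m1 and m2 alone, so the share in falling genes was near that of all genes. In the list of B cell transcription factors 3 of 21 promoters held it, those of Bach2, Bcl6 and Pou2f2. Bach2 and Pou2f2 were called lower on m1 and m2 alone, at -1.86 and -0.85. Of the 5 holders in the ER and Golgi lists or the B cell factor list, 2 were called higher and 2 lower there. Those called higher were Dnajb11 and Sec24c of the ER and Golgi lists, at 0.81 and 0.32. Only the promoters of Bach2 and Pou2f2 are shown, because these genes were called lower, with the matched letters in capitals.
Bach2 (chr4:32417185-32417484, plus strand): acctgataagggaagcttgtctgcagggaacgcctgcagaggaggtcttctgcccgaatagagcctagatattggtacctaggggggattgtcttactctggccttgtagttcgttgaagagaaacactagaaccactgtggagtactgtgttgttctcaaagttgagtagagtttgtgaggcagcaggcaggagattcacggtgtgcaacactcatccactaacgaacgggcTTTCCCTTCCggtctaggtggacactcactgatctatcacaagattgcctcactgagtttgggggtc
Pou2f2 (chr7:25132411-25132710, minus strand): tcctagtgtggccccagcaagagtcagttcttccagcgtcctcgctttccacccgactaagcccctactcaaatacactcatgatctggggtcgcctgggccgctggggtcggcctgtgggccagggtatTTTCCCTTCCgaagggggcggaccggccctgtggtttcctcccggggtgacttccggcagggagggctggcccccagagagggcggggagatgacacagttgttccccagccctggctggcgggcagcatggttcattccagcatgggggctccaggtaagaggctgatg
In both the composite lies on the opposite strand.

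UPR sensors and factors were mixed on m1 and m2 alone, with 8 of 17 called higher and 3 lower and a median of 0.35, and limma called none on all libraries, where 0 were also under an unadjusted p of 0.05. Pycr1, a mitochondrial enzyme of proline synthesis, led the amino acid list, with 50.3, 52.2 and 29.04 RPKM in KO plasmablasts, against 17.03, 14.1 and 7.25 RPKM in KO activated B cells and a difference of 1.73 ± 0.34 (SE, adjusted p 0.0303). Slc3a2, the heavy chain of the CD98 amino acid transporter, had 106, 92.8 and 38.2 RPKM in KO plasmablasts, against 52.9, 47.9 and 41.8 RPKM in KO activated B cells, and was called on m1 and m2 alone at 0.96. Mthfd1l, a mitochondrial enzyme of one-carbon metabolism, was called lower in both fits, at -1.01 and -0.86. Over this list of 20 genes, 6 were called higher and 3 lower on m1 and m2 alone.

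**Figure D3:**
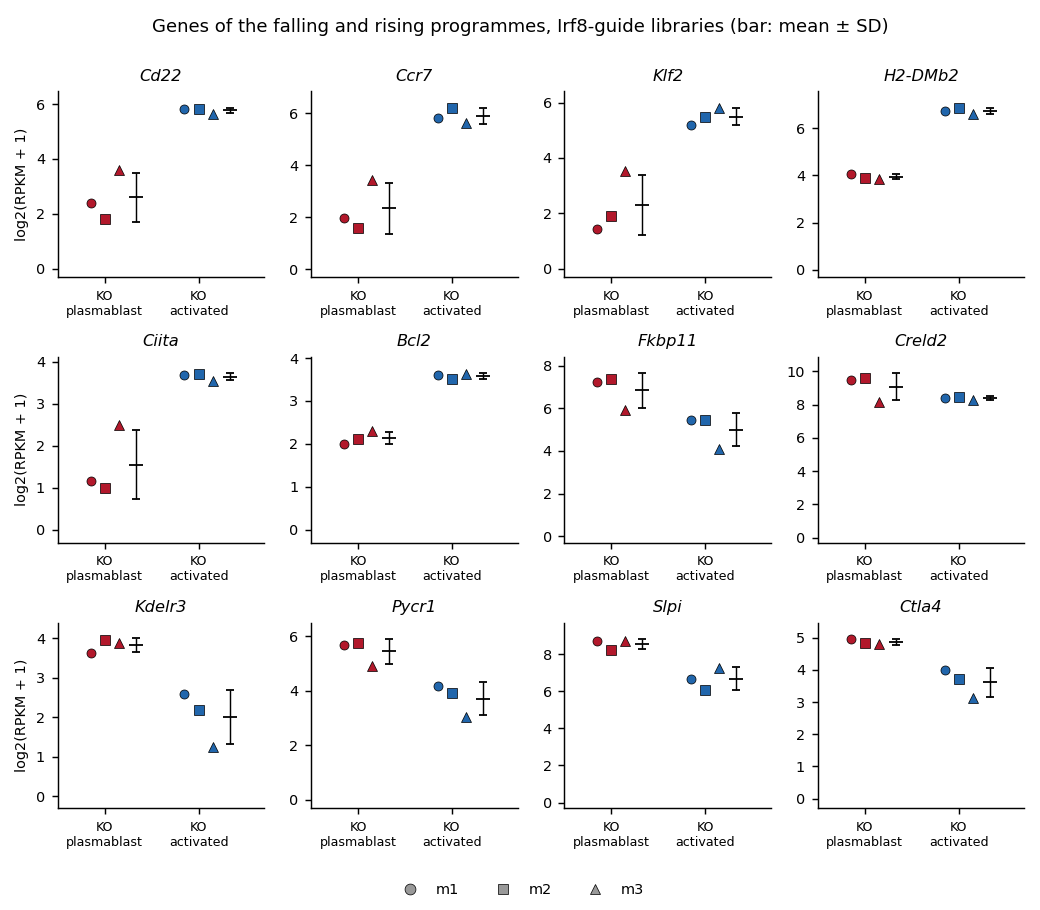
RPKM on the log2(RPKM + 1) scale (vertical axis) of 12 genes named in the text, in KO plasmablast (left, red) and KO activated B cell libraries (right, blue); circles are m1, squares m2, triangles m3, and the bar is the mean ± SD of 3 libraries. In the first 6 genes every plasmablast library lies below every activated one, and for Creld2 the m3 plasmablast library alone lies at the level of the activated ones.

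Proliferation and glycolysis lists had no call on all libraries, where 0.771% of all tested genes were called higher and 2.67% lower. On m1 and m2 alone these shares of all tested genes were 12% and 21.3%. No member of the lists for DNA replication (25 genes), G2/M and mitosis (24), MYC and ribosome biogenesis (22) or glycolysis (20) was called by limma on all libraries, where 7, 4, 9 and 2 of them had an unadjusted p under 0.05. On m1 and m2 alone 2 replication genes were called higher and 6 lower, 0 and 4 of the mitosis genes, and 1 and 1 of the glycolysis genes, with medians of -0.09, -0.033 and -0.048 beside -0.102 for all tested genes. MYC and ribosome biogenesis genes were called higher in 2 cases and lower in 10 there, with a median of -0.346. Npm1, a nucleolar chaperone in ribosome assembly, had 46.7, 53.7 and 14.5 RPKM in KO plasmablasts, against 89.9, 115 and 144 RPKM in KO activated B cells, and was called on m1 and m2 alone at -1.01. Of 28 interferon-stimulated genes Bst2 (tetherin) was called higher on all libraries, with 139.9, 168 and 190.2 RPKM in KO plasmablasts, against 85.5, 94.7 and 79.5 RPKM in KO activated B cells and a difference of 0.92 ± 0.19 (SE, adjusted p 0.0341). On m1 and m2 alone 5 were called higher and 14 lower.

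The same step in WT cells gives the scale of these changes. KO and WT steps share no library. On all libraries the difference between the steps was called by limma for 0 of 9986 genes (0.00%), with 10 at an unadjusted p under 0.05, and the smallest adjusted p was 0.816. On m1 and m2 alone it was called for 3 genes (0.0300%), with 757 at an unadjusted p under 0.05. There 1073 genes were called higher in both genotypes, 89.5% of the genes called higher in KO and 69.9% of the 1536 called higher in WT, and 1881 were called lower in both, 88.4% of those in KO and 61.8% of the 3044 in WT. Across genes the 2 steps correlated at r = 0.918, a description over genes that are not independent. Of the 2954 genes called in both in the same direction, 2272 (76.9%) had the smaller step in KO cells. For the ER folding list this was so for 23 of 23, with list medians of 0.78 in KO and 1.21 in WT, and for the plasma cell list for 21 of 22, with medians of 0.65 in KO and 1.20 in WT. Summed over the ER folding list, KO activated m1 and m2 held 5529 and 5678 RPKM, against 3866 and 5118 in WT activated m1 and m2. KO plasmablasts m1 and m2 held 9456 and 9596 RPKM, between the WT plasmablasts at 8740 and 12610. The plasma cell list had sums of 2972 and 2805 against 1870 and 2450 in those activated libraries. Its plasmablast sums were 4941 and 4868 in KO m1 and m2, between 4207 and 6733 in WT. For the MHC class II list the step was smaller in KO for 10 of 12, with medians of -1.08 in KO and -1.13 in WT. The share was lower in other lists, with 12 of 18 B cell surface molecules, 6 of 11 trafficking receptors and 7 of 12 interferon-stimulated genes. For these lists the difference between genotypes was called for no member except, among the B cell factors, Spib.

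**Figure D4:**
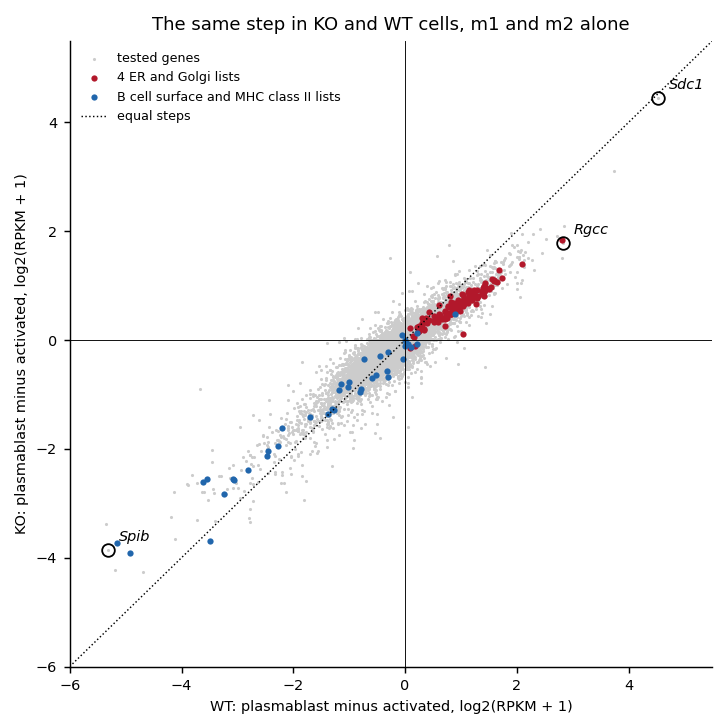
The plasmablast minus activated difference on the log2(RPKM + 1) scale in KO cells (vertical axis) against that in WT cells (horizontal axis), on m1 and m2 alone, 1 point per tested gene; red marks the 4 ER and Golgi lists, blue the B cell surface and MHC class II lists, circles Sdc1, Rgcc and Spib, and the dotted line equal steps. Most coloured points lie nearer to 0 on the KO axis than on the WT axis, as do 6734 of all 9986 tested genes. In the B cell surface list 14 of 25 do.

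Spib and Rgcc were among the 3 genes called. Spib changed by less in KO cells, and in WT cells it had 0.464 and 0.281 RPKM in WT plasmablasts, against 55.6, 50.97 and 28.6 RPKM in WT activated B cells. Its step was -3.86 in KO and -5.31 in WT on m1 and m2 alone, a difference of 1.45 ± 0.21 (SE, limma's adjusted p 0.0384). KO plasmablasts m1 and m2 had more Spib than both WT plasmablast libraries, and KO activated m1 and m2 had less than WT activated m1 and m2. Rgcc rose by 1.79 in KO and 2.82 in WT, a difference of -1.03 ± 0.14 (SE, adjusted p 0.0384), and had 169 and 169 RPKM in WT plasmablasts, against 23.997, 22.2 and 40.5 RPKM in WT activated B cells. In plasmablasts m1 and m2 Rgcc lay close together in both genotypes, and in activated cells m1 and m2 it was higher in KO. The next genes by p were Shisa8, Mir155hg, Nox1, Selenom and Timm10, none of them called.

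**Figure D5:**
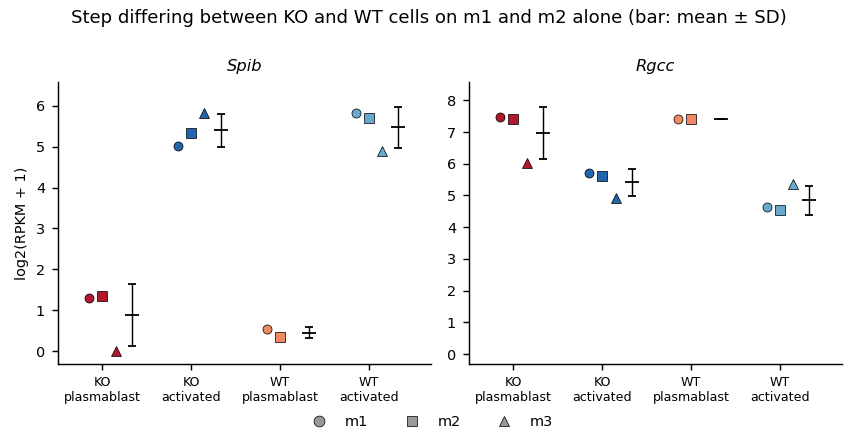
RPKM on the log2(RPKM + 1) scale (vertical axis) of Spib and Rgcc in KO plasmablasts, KO activated, WT plasmablasts and WT activated B cells (left to right), with m1 as circles, m2 as squares, m3 as triangles and the mean ± SD of each group as a bar. In Spib the activated m3 library labelled KO lies above the KO m1 and m2 libraries and the one labelled WT below the WT ones, and in Rgcc the other way round.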

How the data were processed

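PolyA RNA of sorted cells was sequenced, and per the submitters' processing notes reads were aligned with STAR to mm10. The authors deposited 1 table of RPKM (reads scaled by gene length and library size) for 11 cultured libraries, with gene lengths. The counting tool and its strand setting are not given in the sources used here. No column was left unmapped, 15 symbols that a spreadsheet had turned into dates were restored by gene ID, and 10568 of 10574 IDs were found in RefSeq (GRCm38.p6), which gave coordinates and promoters. Read numbers were estimated from the smallest steps of the RPKM values, with low values whole within 0.2 reads. RPKM times gene length showed that the table's genes held 72.3% of the m3 KO plasmablast library's reads.

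Genes at 1 RPKM or more in at least 2 libraries were tested on log2(RPKM + 1) with limma 3.58.1 in R 4.3.3 (1 mean per group over 4 cultured groups, empirical Bayes with trend, Benjamini-Hochberg over all 9986 genes), and the script was tested on simulated data. Named genes are the given markers with Irf8 and Thy1, the 12 highest and 12 lowest called genes whose libraries do not overlap, and of each list up to 6 called and 4 uncalled members. To these come up to 8 genes by the p of the KO minus WT difference and all members of lists of 10 or fewer. Other genes were named after their values were seen. The comparison and the lists were chosen with earlier results of these data known. Whether the same m number pairs the libraries was not settled. After group means were removed, KO plasmablast and KO activated libraries of 1 number correlated at -0.009, -0.001 and -0.076. Those means include the m3 plasmablast library of few reads, so the correlations cannot decide it. The main fit left the m number out. Alternatives were other pseudocounts, filters and scalings, library weights, a replicate block and leaving out each library. Naive libraries were not used, and some named genes are not reported here.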

Additional observations from a re-analysis of the deposited data

Results flagged for a closer look

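The plasmablast minus activated difference was itself different between KO and WT cells for Spib and Rgcc, by limma's test of the difference of the steps on m1 and m2 alone. For Spib the KO step minus the WT step was 1.45 (adjusted p 0.0384) and for Rgcc it was -1.03 (adjusted p 0.0384). The direction was the same in every library pair of m1 and m2, in that both KO plasmablast libraries held more Spib than both WT plasmablast libraries, and both KO activated libraries held more Rgcc than both WT activated libraries. On all libraries the differences were 0.50 and -0.9995, and neither was called. These values rest on 2 libraries a group.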

How the results depend on the processing

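Genes called in the KO step numbered 344 on all libraries and 3326 on m1 and m2 alone. Leaving out 1 library gave 39 to 3037. With the 2 KO groups alone the count was 15, with quantile normalization 565 and with library weights 4400, a fit that did not fully converge. The replicate block gave 192, and 3745 on m1 and m2 alone, although whether m numbers pair the libraries was not settled. The difference between the KO and WT steps was called for 0 genes on all libraries and with each library left out, for 3 on m1 and m2 alone and for 1 with the replicate block on m1 and m2 alone. In that last fit Rgcc had an adjusted p of 0.0489 and Spib of 0.0595, so that Spib was not called. In the WT step 176 genes were called on all libraries and 4580 on m1 and m2 alone, 0 to 3319 with 1 library left out, 3165 with its 2 groups alone, 369 with quantile normalization, 5509 with library weights and 5006 with the replicate block on m1 and m2 alone. Pseudocounts of 0.1 and 5, both filters, median ratio scaling and no trend kept the KO count between 266 and 366. Of the genes named with a difference, 52 were called on all libraries, and of their 1196 alternative values 882 kept direction and call, 314 lost the call and 0 turned. Uncalled genes turned direction in 9 of 895 alternative values. With 1 library left out Hspa5 ran from -0.046 to 0.567 (-0.029 and -0.046 without m1 or m2 of the KO plasmablasts), Irf4 from -0.288 to 0.607 (-0.229 and -0.288 without those, -0.048 without m3 of the KO activated cells) and Prdm1 from -0.574 to 0.183. Prdm1 was at 0.118 on m1 and m2 alone with or without the block, 0.183 without m3 of the KO plasmablasts and 0.147 with library weights. The cause was not tested. Depth limits the m3 KO plasmablast library, where 1816 tested genes are at 0 reads and 581 hold 10 or more.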

Other observations

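Several of the lowest genes of the comparison belong to no list. Pde2a, a phosphodiesterase that degrades cyclic nucleotides, had 1.96, 1.37 and 1.58 RPKM in KO plasmablasts, against 26.8, 22.6 and 22.03 RPKM in KO activated B cells. Its adjusted p on all libraries was 8.25e-04, with a difference of -3.24 ± 0.24 (SE), and the difference was -3.27 on m1 and m2 alone. All 3 plasmablast values lay close together, but the m3 value is 1 estimated read. Rgs16, a GTPase-activating protein that ends G protein signals, had 0.737, 1.41 and 0 RPKM in KO plasmablasts, against 20.6, 18.5 and 13.3 RPKM in KO activated B cells, a difference of -3.50. Srpk3, a serine/arginine-rich protein kinase known from muscle, had 3.13, 3.35 and 0 RPKM in KO plasmablasts, against 27.9, 22.5 and 18.2 RPKM in KO activated B cells, and Cdh17, a cadherin also found on B cells, had 2.73, 2.41 and 4.06 RPKM in KO plasmablasts, against 19.5, 19.01 and 14.7 RPKM in KO activated B cells. Gbp2, an interferon-induced guanylate-binding protein, had 3.69, 2.62 and 13.8 RPKM in KO plasmablasts, against 50.1, 45.5 and 37.5 RPKM in KO activated B cells, a difference of -2.84, or -3.56 on m1 and m2 alone. All 5 were called lower in both fits. Gbp2 and Cdh17 are named by the size of the p for the KO and WT steps, which was not called for either.

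Interferon-stimulated genes moved both ways on m1 and m2 alone. Ifit1 had 4.80, 1.43 and 22.03 RPKM in KO plasmablasts, against 20.9, 23.6 and 5.86 RPKM in KO activated B cells and Dhx58 had 6.97, 8.47 and 22.3 RPKM in KO plasmablasts, against 18.8, 20.2 and 14.4 RPKM in KO activated B cells, with differences of -2.63 and -1.24 there, both called lower. The RNA sensor gene Zbp1 had 39.2, 31.4 and 24.2 RPKM in KO plasmablasts, against 23.9, 19.3 and 12.5 RPKM in KO activated B cells and was called higher there at 0.68. For Ifit1 and Dhx58 the m3 plasmablast library was the highest of its group, and neither was called on all libraries (adjusted p 0.370 and 0.359). Cacna1h, a T-type calcium channel subunit, had 9.50, 8.996 and 2.43 RPKM in KO plasmablasts, against 1.65, 1.34 and 1.34 RPKM in KO activated B cells, and was called higher on m1 and m2 alone at 2.04. Hmces, which shields abasic sites in DNA, had 26.04, 28.6 and 9.56 RPKM in KO plasmablasts, against 10.8, 11.2 and 6.04 RPKM in KO activated B cells, and was called higher there at 1.24. Ifit1, Dhx58, Zbp1, Cacna1h and Hmces were chosen after their values were seen, Hmces also by the list rule.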
